A study of Mus musculus with 17 samples.

Results

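Catecholamines were followed here at the level of the genes that make, move and degrade them. The 9 genes were Th, Ddc, Dbh and Pnmt (synthesis), Slc6a2, Slc6a3 and Slc18a2 (transport), and Maoa and Maob (breakdown), and they were taken by their symbols from the 56953 genes of the count table. Each symbol was found once. RNA from mouse prefrontal cortex was measured by bulk mRNA sequencing in 17 mice (5 WT, 6 PS19, 6 CgA-KO/PS19). The comparisons of these genotypes show whether cortical levels of the transcripts differ with mutant human Tau and with the loss of chromogranin A (CgA) on top of it.

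PS19 mice, labelled hTau in the data, are heterozygous for a transgene that expresses P301S mutant human Tau from the Prnp promoter. CgA-KO/PS19 mice, labelled CgA-KO/hTau, carry the same transgene together with a congenital, whole-body deletion of Chga. WT mice have neither change. All 3 genotypes were on the B6C3F1/J background, were fed regular chow and were 8 months old by the labels and the methods, although a legend of the study gives 9 months. Each group held males and females. A group of CgA-KO mice without the transgene was not analysed here, so that the loss of CgA was compared on the PS19 background only.

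Th (tyrosine hydroxylase) turns tyrosine into L-DOPA and is the rate-limiting step, Ddc makes dopamine from L-DOPA, Dbh makes noradrenaline from dopamine, and Pnmt makes adrenaline from noradrenaline. Slc18a2 (VMAT2) loads the amines into vesicles, Slc6a3 (the dopamine transporter) and Slc6a2 (the noradrenaline transporter) take them back up, and Maoa and Maob oxidise them on the outer mitochondrial membrane. The cell bodies of dopamine and noradrenaline neurons lie in the midbrain and brainstem, and the cortex receives their axons. Transcripts of the neuronal genes in these samples may come from few local cells, axons or adjoining tissue, and their source was not tested. Maob is a gene of astrocytes and of serotonin and histamine neurons.

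Th and Slc18a2 share a sequence feature that did not enter the choice of the genes. Promoter windows of RefSeq (GRCm38.p6, 250 bases before to 50 after the start) were at hand for 6 of the 9 genes, as 7 windows, and were searched on both strands for TGACGTCA, the palindromic full cAMP response element (CRE). The 8 letters were found in the windows of Th and Slc18a2, against 1.79% of the 32851 mouse windows. A GC box, GGGCGG, which does not overlap it in these windows, was found in 4 of the 6 genes (Th, Slc6a3, Slc18a2 and Maoa), against 35.7% of all windows. The 90 bases before the start and the first 10 bases from it are shown for both genes to set the positions of the element side by side, with the element in capitals. Th lies on the minus strand at chr7:142899986-142900085 and Slc18a2 on the plus strand at chr19:59260788-59260887.
Th: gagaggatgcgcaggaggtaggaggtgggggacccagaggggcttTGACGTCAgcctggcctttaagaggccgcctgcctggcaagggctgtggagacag
Slc18a2: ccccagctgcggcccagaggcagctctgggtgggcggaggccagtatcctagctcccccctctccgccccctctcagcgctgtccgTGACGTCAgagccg
The element began 45 bases before the start in Th and 4 bases before it in Slc18a2, where it spanned the start. These matches describe the letters only, and no binding was measured.

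Expression was read as CPM, counts scaled by TMM-normalised library size. The deposited total was 8838334 to 227651681 counts per sample, and in most samples about 3 counts stood for 1 fragment, so that a count of 0 allowed up to 0.0396 CPM in the deepest sample and 1.03 CPM in the shallowest, WT replicate 4, counting error only. Chga had 0 counts in all 6 CgA-KO/PS19 samples and 152 to 180 CPM in the other 11. Excitatory cortical neuron markers (Slc17a7, Camk2a and Neurod6) summed to 1974 to 5139 CPM in the 17 samples. The 12 striatal projection neuron markers varied with genotype and summed to 1128 to 3217 CPM (WT), 162 to 218 CPM (PS19) and 196 to 1804 CPM (CgA-KO/PS19), where in the last genotype replicates 1 and 3 were highest. All 12 were lower in PS19 than in WT at an adjusted p under 0.05 in edgeR, beside 5.9% of all genes tested. When CgA-KO/PS19 was set against PS19, 9 of the 12 were called higher, beside 9.72%. The Y-linked gene Ddx3y reached 49.8 to 76.8 CPM in the first 3 replicates of WT, PS19 and CgA-KO/PS19 and did not exceed 0.0582 CPM in the remaining 8 samples, and the labels state no sex per sample. The low counts and these markers bear on single results below and are given beside them.

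The 9 genes fell into 3 tiers. Scaled by exon length, the median over the 17 samples was 8.09 CPM per kb for Maoa and 7.59 for Maob, followed by Slc18a2 at 1.11, Ddc at 0.612 and Th at 0.443. Dbh at 0.0605 and Pnmt at 0.0453 CPM per kb were near the detection limit, and the medians of Slc6a2 and Slc6a3 were 0. Among neighbours in this order, the ranges over samples were separate for Maob and Slc18a2 only. Maoa was above Maob per kb in 12 of 17 samples. Thus the amine oxidases were abundant in these samples, and the 2 high-affinity uptake carriers were hardly represented.

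No gene of the 9 passed the test between genotypes. Low counts left Pnmt, Slc6a2 and Slc6a3 out, and the remaining 6 went through the quasi-likelihood test of edgeR, with Benjamini-Hochberg adjustment over 23062 genes. In PS19 against WT, 0 of the 6 had an adjusted p under 0.05 (smallest adjusted p 0.132, Ddc), where 5.9% of all genes tested were called. At an unadjusted p under 0.05, Th and Ddc passed, 2 of 6 beside 20.9% of all genes. DESeq2 called 1 of 8 (Slc6a3), beside 9.81% of its genes, and limma voom called 2 of 6 (Th and Dbh), beside 17.2%. In CgA-KO/PS19 against PS19, 0 of 6 were called (smallest adjusted p 0.0796, Maob) beside 9.72% of all genes, and Maob passed at an unadjusted p under 0.05, 1 of 6 beside 27.8%. DESeq2 called Maob, 1 of 8 beside 15.2%, and limma voom called Ddc and Maob, 2 of 6 beside 22.7%.

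In CgA-KO/PS19 against WT, edgeR again called 0 of 6 (smallest adjusted p 0.0980, Th) beside 6.46% of all genes. Th passed at an unadjusted p under 0.05, 1 of 6 beside 21.7%, DESeq2 called Slc6a3, 1 of 8 beside 9.87%, and limma voom called 0 of 6 beside 10.7%. The samples of the genotypes overlapped for each tested member in each comparison, while 9.52% of genes did not overlap in PS19 against WT, 6.63% in CgA-KO/PS19 against PS19 and 3.6% in CgA-KO/PS19 against WT. The median log2 fold change of the 6 tested members was -0.69, 0.30 and -0.21 in the same order, and that of all genes tested was 0.0097, 0.026 and 0.0090. The comparisons share groups, so that these values are not independent of each other. The labels number the samples without naming litters or batches, and the p-values measure the spread between these samples.

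**Figure D1:**
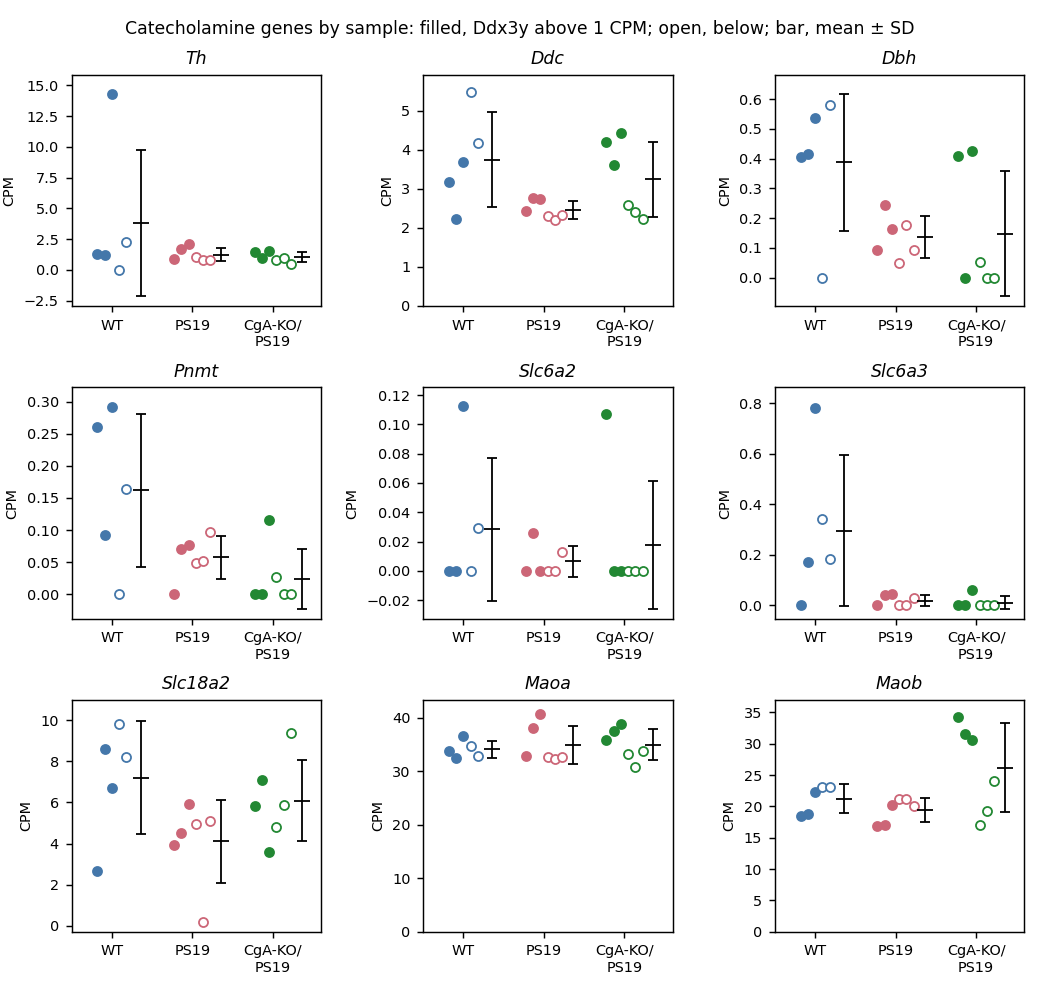
CPM (y axis, linear) of the 9 genes in each sample of WT (n = 5), PS19 (n = 6) and CgA-KO/PS19 (n = 6); each point is a sample, filled where Ddx3y was above 1 CPM and open where it was below, and the bar beside each group is the mean ± SD. Th stands at 14.3 CPM in WT replicate 3 and at most 2.25 CPM elsewhere, and Maob is above 30 CPM in CgA-KO/PS19 replicates 1 to 3 only.

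Th, the first enzyme of the pathway (chr7:142892752-142931128, minus strand, GENCODE M21 on GRCm38), was low in cortex apart from 1 sample. In WT replicates 1 to 5, Th was 1.27, 1.25, 14.3, 0 and 2.25 CPM. In PS19 it was 0.823 to 2.10 CPM with a median of 0.979, and in CgA-KO/PS19 0.462 to 1.54 CPM with a median of 0.977. WT replicate 3 alone stood apart, and the other WT samples lay within or next to the range of the transgenic mice; the 0 of WT replicate 4 allows up to 1.03 CPM at its depth. The log2 fold change was -1.68 ± 0.67 (SE) in PS19 against WT (adjusted p = 0.152) and -1.94 ± 0.68 in CgA-KO/PS19 against WT (adjusted p = 0.0980). Without WT replicate 3 these were -0.064 (adjusted p = 0.961) and -0.32 (adjusted p = 0.771), and without WT replicate 4 the latter passed the threshold (-2.21, adjusted p = 0.0261). CgA-KO/PS19 and PS19 differed by -0.26 ± 0.64 (95% interval -1.61 to 1.10, adjusted p = 0.835).

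Olfactory bulb markers moved with Th in WT replicate 3. Periglomerular neurons of the olfactory bulb are a well-known source of Th in the forebrain, and the markers listed were Doc2g, Cdhr1, Eomes, Tbx21 and Sp8. In WT replicate 3 all 5 were at their highest level of the 17 samples, namely Doc2g at 14.3, Cdhr1 at 67.5, Eomes at 11.7, Tbx21 at 4.65 and Sp8 at 14.4 CPM. Summed, they reached 113 CPM there, 12.5 to 27.3 CPM in the other WT samples, 5.69 to 8.05 CPM in PS19 and 4.12 to 18.6 CPM in CgA-KO/PS19, and their part in the Th value was not tested. Eomes was at most 0.200 CPM in the other 16 samples. Markers of midbrain dopamine neurons (Pitx3, En1, En2, Lmx1a, Lmx1b, Foxa1 and Foxa2) summed to at most 0.859 CPM in WT, 0.836 CPM in PS19 and 1.16 CPM in CgA-KO/PS19, and Foxa2 was at 0 in all samples.

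Ddc, aromatic amino acid decarboxylase, which serves serotonin synthesis too (chr11:11814101-11898144, minus strand), was 3.18, 2.23, 3.68, 5.47 and 4.17 CPM in WT replicates 1 to 5. In PS19 the range was narrow, 2.20 to 2.77 CPM with a median of 2.37, and in CgA-KO/PS19 it was 2.22 to 4.42 CPM with a median of 3.09. WT replicate 2 lay at the lower edge of the PS19 range and the other 4 WT samples lay above it, while CgA-KO/PS19 replicates 1 to 3 (3.61 to 4.42 CPM) lay above PS19 and replicates 4 to 6 (2.22 to 2.58 CPM) within it. The log2 fold change was -0.58 ± 0.22 (SE) in PS19 against WT (adjusted p = 0.132, edgeR), 0.40 ± 0.21 in CgA-KO/PS19 against PS19 (adjusted p = 0.218) and -0.18 ± 0.22 in CgA-KO/PS19 against WT (adjusted p = 0.693). The antisense gene 1700042O10Rik lies within Ddc without overlap of exons.

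With the samples split by Ddx3y, an alternative chosen after the data had been seen, Ddc passed the test in single subsets. In the samples with Ddx3y above 1 CPM, CgA-KO/PS19 exceeded PS19 by a log2 fold change of 0.64 (adjusted p = 0.0376), and in those below it was 0.063 (adjusted p = 0.899). Against WT, PS19 was lower in the samples with Ddx3y below 1 CPM (log2 fold change -1.04, adjusted p = 0.0275). In those above 1 CPM this difference was -0.20 (adjusted p = 0.703). In the subset below 1 CPM, WT consisted of replicates 4 and 5 only, and replicate 4 was the shallowest sample. CgA-KO/PS19 replicates 1 to 3, seen before to lie above PS19 for Ddc, are the samples of that genotype with Ddx3y above 1 CPM. The adjusted p of that subset against PS19 is therefore no separate support. Whether the subsets differ from each other was not tested.

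Dbh, which marks noradrenaline neurons (chr2:27165233-27183200, plus strand), was below 1 CPM in each sample. WT replicates 1 to 5 had 0.405, 0.415, 0.536, 0 and 0.579 CPM, PS19 had 0.0485 to 0.243 CPM with a median of 0.128, and CgA-KO/PS19 had 0 to 0.424 CPM with a median of 0.0267. The 4 WT samples with counts lay above all PS19 samples, and the fifth, WT replicate 4, could have held up to 1.03 CPM at its depth. In CgA-KO/PS19, replicates 1 and 3 had 0.410 and 0.424 CPM, and the other 4 had at most 0.0533. The log2 fold change was -1.61 ± 0.84 (SE) in PS19 against WT (adjusted p = 0.286, edgeR), 0.21 ± 0.81 in CgA-KO/PS19 against PS19 (adjusted p = 0.898) and -1.40 ± 0.85 in CgA-KO/PS19 against WT (adjusted p = 0.363). Fitted on WT and PS19 alone, Dbh passed in PS19 against WT (log2 fold change -1.65, adjusted p = 0.0459), as it did with limma voom (-1.999, adjusted p = 0.00560). It did not pass with DESeq2 (adjusted p = 0.305) or with counts divided by 3 in edgeR (0.0929). Nor did it pass in edgeR with near-identical samples averaged (0.503) or with the replicate block (0.528).

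The highest Dbh values lay in samples with high striatal markers, although striatal neurons are not known for noradrenaline synthesis. The samples with Dbh above 0.4 CPM, WT replicates 1, 2, 3 and 5 and CgA-KO/PS19 replicates 1 and 3, were those with at least 1164 CPM of summed striatal markers. The remaining samples had at most 426 CPM, apart from WT replicate 4 with 1128 CPM and 0 counts of Dbh. Among them the order differed. CgA-KO/PS19 replicate 2 had 426 CPM of striatal markers and 0 counts of Dbh, while PS19 replicate 2 had 181 CPM and 0.243 CPM of Dbh. With the striatal marker score as a covariate the PS19 against WT difference of Dbh turned from -1.61 to 2.21 (adjusted p = 0.170), and that of CgA-KO/PS19 against PS19 from 0.21 to -2.61 (adjusted p = 0.0781). The scores of WT and PS19 did not overlap, so that in PS19 against WT this fit cannot tell genotype and striatal content apart. The part of the dissection in these values was not tested further. Phox2a, a transcription factor that defines noradrenaline neurons, was at most 0.0306 CPM in WT, 0.0546 CPM in PS19 and 0.0356 CPM in CgA-KO/PS19. As these are bulk samples, fewer cells of a type and less RNA per cell cannot be told apart.

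Pnmt, the enzyme that makes adrenaline (chr11:98386450-98388181, plus strand), had too few counts for a test. In WT replicates 1 to 5 it was 0.260, 0.0922, 0.291, 0 and 0.164 CPM, from 9, 6, 57, 0 and 17 deposited counts. PS19 had 0 to 0.0967 CPM with a median of 0.0613, and in CgA-KO/PS19 replicates 3 and 4 had 0.116 and 0.0267 CPM and the other 4 were at 0. WT held the highest samples, yet a count of 0 allows up to 0.260 CPM in CgA-KO/PS19 replicate 6, and up to 1.03 CPM in WT replicate 4, so that single zeros carry little weight. DESeq2, which kept Pnmt, gave adjusted p-values of 0.318, 0.540 and 0.0870 in PS19 against WT, CgA-KO/PS19 against PS19 and CgA-KO/PS19 against WT.

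The uptake carriers had a median of 0 over the 17 samples. Slc6a2 (chr8:92960079-93001667, plus strand) had counts in 2 of 5 WT samples, 2 of 6 PS19 samples and 1 of 6 CgA-KO/PS19 samples, and its highest values were 0.112 CPM in WT replicate 3 and 0.107 CPM in CgA-KO/PS19 replicate 1, from 22 and 6 counts. It was at 0 in 12 of the 17 samples. Slc6a3 (chr13:73536747-73578672, plus strand) was 0, 0.169, 0.781, 0.342 and 0.183 CPM in WT replicates 1 to 5. In PS19 it was 0 to 0.0434 CPM with 3 of 6 samples at 0, and in CgA-KO/PS19 only replicate 3 had counts, at 0.0606 CPM. The 4 WT samples with counts lay above all samples of the other genotypes, and WT replicate 4 among them rested on 3 counts, about 1 fragment.

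Slc6a3 passed in some of the alternatives that kept it. With DESeq2 the log2 fold change was -3.97 in PS19 against WT (adjusted p = 0.0350) and -4.46 in CgA-KO/PS19 against WT (adjusted p = 0.0239), and without a filter edgeR gave -3.80 (adjusted p = 0.0565) and -4.18 (adjusted p = 0.0494). Between CgA-KO/PS19 and PS19 the DESeq2 value was -0.49 (adjusted p = 0.858). The highest WT sample, replicate 3, was the one with 14.3 CPM of Th and 113 CPM of summed olfactory bulb markers.

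Slc18a2, the vesicular monoamine transporter (chr19:59260896-59296012, plus strand), was 2.69, 8.59, 6.70, 9.81 and 8.21 CPM in WT replicates 1 to 5. PS19 had 0.209 to 5.91 CPM with a median of 4.73, and CgA-KO/PS19 had 3.61 to 9.38 CPM with a median of 5.84. WT replicate 1 lay below 5 of the 6 PS19 samples and the other 4 WT samples above all of them, and PS19 replicate 5, at 0.209 CPM from 32 counts, was far below PS19 replicates 4 and 6 (4.96 and 5.11 CPM). The log2 fold change was -0.80 ± 0.49 (SE) in PS19 against WT (adjusted p = 0.379, edgeR), 0.56 ± 0.47 in CgA-KO/PS19 against PS19 (adjusted p = 0.460) and -0.24 ± 0.50 in CgA-KO/PS19 against WT (adjusted p = 0.839). Without PS19 replicate 5 the former 2 were -0.55 (adjusted p = 0.321) and 0.32 (adjusted p = 0.490).

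PS19 replicate 5 was otherwise close to PS19 replicates 4 and 6. Over 3761 well-covered genes the robust SD of the log2 ratio was 0.0523 between replicates 4 and 5, 0.0540 between 5 and 6 and 0.0607 between 4 and 6, while CgA-KO/PS19 replicates 1 and 3 gave 0.0980 and no other pair of a genotype was under 0.146. The median counting noise of the ratios of these 4 pairs was 0.0243 to 0.0381, below each of their spreads. The samples were kept as the separate samples that the labels list, and whether they come from separate mice cannot be told from the values. The antisense gene Gm29261 overlaps exons of Slc18a2, and whether the counting used the strand is not given in the sources used here.

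Maoa (chrX:16619698-16687818, plus strand) and Maob (chrX:16709282-16817366, minus strand) are neighbours on the X chromosome and differed in how they varied. Maoa, the form found in many noradrenaline neurons and other cells, was 33.8, 32.4, 36.6, 34.7 and 32.9 CPM in WT replicates 1 to 5. It was 32.4 to 40.7 CPM in PS19 (median 32.7) and 30.8 to 38.8 CPM in CgA-KO/PS19 (median 34.8). The 3 genotypes covered one another almost entirely. Its log2 fold change was 0.034 ± 0.089 (SE, 95% interval -0.15 to 0.22, adjusted p = 0.873, edgeR) in PS19 against WT and 0.0037 ± 0.084 (95% interval -0.17 to 0.18, adjusted p = 0.984) in CgA-KO/PS19 against PS19. In CgA-KO/PS19 against WT it was 0.038 ± 0.089 (95% interval -0.15 to 0.22, adjusted p = 0.857). Maoa thus had the narrowest intervals of the 6 tested members.

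Maob was 18.5, 18.8, 22.4, 23.2 and 23.1 CPM in WT replicates 1 to 5, 16.9 to 21.2 CPM in PS19 (median 20.2) and 16.97 to 34.3 CPM in CgA-KO/PS19 (median 27.4). CgA-KO/PS19 replicates 1 to 3, at 34.3, 31.6 and 30.7 CPM, were above all other samples, whereas replicates 4 to 6, at 16.97, 19.3 and 24.1 CPM, were within or next to the range of the other genotypes. The log2 fold change was 0.43 ± 0.15 (SE) in CgA-KO/PS19 against PS19 (adjusted p = 0.0796, edgeR), 0.31 ± 0.16 in CgA-KO/PS19 against WT (adjusted p = 0.288) and -0.12 ± 0.16 in PS19 against WT (adjusted p = 0.715). Leaving out CgA-KO/PS19 replicate 4 or 5, the lowest of that genotype, brought the first of these past the threshold (0.54, adjusted p = 0.0140, and 0.50, adjusted p = 0.0389). Leaving out replicate 1, 2 or 3 weakened it to 0.34, 0.37 and 0.39 (adjusted p = 0.181, 0.177 and 0.145). With near-identical samples averaged it was 0.40 (adjusted p = 0.254).

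The split by Ddx3y put the 3 highest Maob samples, CgA-KO/PS19 replicates 1 to 3, into 1 subset. The adjusted p-values of that subset are therefore no separate support. Its replicates 1 and 3 were also close to each other (robust SD 0.0980). In the samples with Ddx3y above 1 CPM (3 CgA-KO/PS19 and 3 PS19) Maob in CgA-KO/PS19 exceeded that in PS19 by a log2 fold change of 0.85 ± 0.12 (SE, adjusted p = 0.00134), and that in WT by 0.71 ± 0.12 (adjusted p = 0.00419). In the samples below 1 CPM the same differences were -0.070 (adjusted p = 0.850) and -0.19 (adjusted p = 0.650). The split was chosen after the data had been seen, and the difference between the subsets was not tested. With Ddx3y as a covariate over all samples the log2 fold change of CgA-KO/PS19 against PS19 was 0.42 (adjusted p = 0.0925). With the striatal marker score as the covariate it was 0.13 (adjusted p = 0.545), and CgA-KO/PS19 against WT was 0.62 (adjusted p = 0.00657).

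Markers of several cell types and mitochondrial counts stood apart in the same 3 samples. The 6 astrocyte markers (Aqp4, Gfap, Aldh1l1, Slc1a3, Gja1 and S100b) summed to 1333 to 1515 CPM in CgA-KO/PS19 replicates 1 to 3 and to 714 to 942 CPM in replicates 4 to 6, 682 to 902 CPM in WT and 732 to 1006 CPM in PS19. The 6 did not move alike. Aqp4, Gfap, Slc1a3 and S100b were higher in each of the 3 samples than in any other, as with Aqp4, the astrocyte water channel, at 176 to 182 CPM against at most 115 CPM. Gja1 was 237, 93.4 and 110 CPM in replicates 1 to 3 and 129 to 175 CPM in WT and PS19, and Aldh1l1 was 45.2 to 60.2 CPM, within the PS19 range of 44.0 to 60.8 CPM. Oligodendrocyte markers summed to 1831 to 2167 CPM in the 3 samples and at most 1573 CPM elsewhere, mural cell markers to 206 to 213 CPM against at most 163 CPM, and inhibitory interneuron markers to 593 to 638 CPM against at least 913 CPM. Of the 6 astrocyte markers, 2 were called higher when CgA-KO/PS19 was set against PS19, beside 9.72% of all genes tested called in either direction. Mitochondrial genes took 15.3%, 18.2% and 13.8% of the counts in CgA-KO/PS19 replicates 1 to 3 and at most 10.9% in the others. The part of these cell types and of mitochondrial counts in the Maob values was not tested.

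The ratio of Maob to Maoa within a sample, described after the values had been seen and hence with no test, gave the same picture. WT samples had 0.548 to 0.701, PS19 samples 0.448 to 0.654 and CgA-KO/PS19 samples 0.512 to 0.956. The 3 highest ratios, 0.956, 0.842 and 0.791, belonged to CgA-KO/PS19 replicates 1, 2 and 3, and the next was 0.713 in replicate 6 of that genotype.

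**Figure D2:**
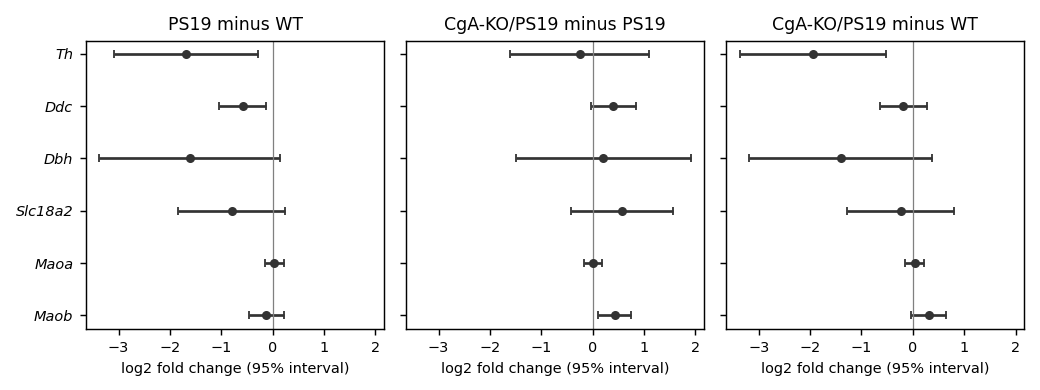
Log2 fold change (x axis, with its 95% interval as the bar) of the 6 tested members in PS19 against WT, CgA-KO/PS19 against PS19 and CgA-KO/PS19 against WT, from edgeR's quasi-likelihood fit over 17 samples. The Maoa intervals are the narrowest and lie around 0, those of Th and Dbh span more than 2 log2 units, and no adjusted p was under 0.05.

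**Figure D3:**
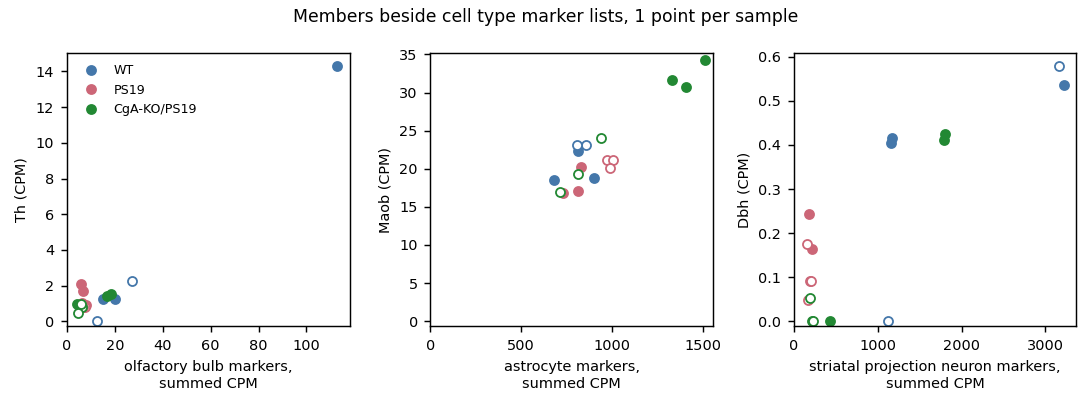
CPM of Th, Maob and Dbh (y axes) against the summed CPM of olfactory bulb, astrocyte and striatal projection neuron markers (x axes), 1 point per sample, coloured by genotype and filled where Ddx3y was above 1 CPM. WT replicate 3 stands alone for Th at 113 CPM of olfactory bulb markers, CgA-KO/PS19 replicates 1 to 3 stand together for Maob at 1333 CPM or more of astrocyte markers, and the Dbh values above 0.4 CPM lie at 1164 CPM or more of striatal markers.

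The genes most like each tested member were found by the correlation of log2(CPM + 1) over the 17 samples, among genes with a mean of at least 1 CPM. The samples share genotype, depth and dissection, and the coefficients are a description with no p. Aqp4 was most like Maob (Pearson r = 0.941, Spearman rho = 0.853, and r = 0.891 without the 2 samples farthest from the median), followed by Snap23 (r = 0.937) and Gm49204 (r = 0.934). For Dbh they were Arrdc4 (r = 0.972, rho = 0.957, 0.957 without the 2 farthest samples), Smpd3 (r = 0.940) and Cacna1h (r = 0.935). Ddc was most like Abcb4 (r = 0.924, rho = 0.767, 0.883 without the 2 farthest), Sh3bp2 and Zfp964, and Maoa most like Ankrd28 (r = 0.828, rho = 0.917, 0.771 without the 2 farthest), Ttll7 and Zfp119b.

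For Th, each of the 3 likenesses weakened without the farthest samples. For Slc18a2 the first weakened too, while that of Serpinb6a held. Tshz1, a transcription factor of olfactory bulb interneurons, was most like Th with r = 0.936 and rho = 0.561, and r was 0.616 without WT replicates 3 and 4. Shisa8 (r = 0.886) and Mbtps1 (r = 0.860) came next, and without these 2 samples r was 0.196 for Shisa8 and 0.684 for Mbtps1. For Slc18a2, Kics2 was first with r = 0.806 and rho = 0.551, and r was 0.445 without PS19 replicate 5 and WT replicate 1. Kics2 itself was 5.83 CPM in PS19 replicate 5, the lowest of the 17 samples. Mccc1os (r = 0.759, and 0.485 without these 2 samples) and Serpinb6a (r = 0.754 and 0.732) followed.

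The wider pathway was read from 35 further genes in 7 lists, of which 34 were tested and Gchfr was not. In PS19 against WT 1 was called higher and 5 lower (beside 5.9% of all genes tested), in CgA-KO/PS19 against PS19 2 higher and 2 lower (beside 9.72%), and in CgA-KO/PS19 against WT 1 higher and 4 lower (beside 6.46%). Chga, the deleted gene, is among the lower ones in the latter 2. The median log2 fold change of the 34 was 0.16, -0.18 and -0.0080 in this order, and that of all genes tested 0.0097, 0.026 and 0.0090. The called genes lay in storage, low-affinity uptake, the synthesis helpers and aldehyde clearance. None of the 7 tested genes of the tetrahydrobiopterin cofactor that Th requires was called in any comparison, nor was either of the 2 of methylation and sulfation, which at these shares says little of such short lists. In the samples with Ddx3y above 1 CPM, 3 per genotype, the 6 calls of PS19 against WT were lost (adjusted p = 0.0751 to 0.207).

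Vesicle storage held the gene changed by design, Chga, and 2 synaptic vesicle genes. Sv2c, a vesicle protein known from basal ganglia, averaged 166 ± 46.7 (WT, n = 5), 75.6 ± 12.3 (PS19, n = 6) and 61.1 ± 17.4 CPM (CgA-KO/PS19, n = 6; mean ± SD). Its samples did not overlap between WT and either other genotype, with a log2 fold change of -1.14 ± 0.20 (SE, adjusted p = 0.00246, edgeR) for PS19 and -1.45 ± 0.20 (adjusted p = 0.000648) for CgA-KO/PS19. Slc10a4, a transporter-like protein of monoaminergic and cholinergic vesicles, was 1.88 to 7.35 CPM in WT, 0 to 0.173 CPM in PS19 and 0 to 2.47 CPM in CgA-KO/PS19, where replicates 1 and 3 had 2.18 and 2.47 CPM and the other 4 at most 0.120. It fell in PS19 against WT (log2 fold change -5.81 ± 1.13, adjusted p = 0.00474) and rose in CgA-KO/PS19 against PS19 (3.43 ± 1.03, adjusted p = 0.0447), the latter call being lost in 12 of 17 fits without 1 sample (adjusted p up to 0.122). With the striatal marker score as a covariate, Slc10a4 was -0.51 (adjusted p = 0.771) and -0.69 (adjusted p = 0.618) in these comparisons, and Sv2c was -0.38 in PS19 against WT (adjusted p = 0.310). The scores of WT and PS19 did not overlap, so that in PS19 against WT these fits cannot tell genotype and striatal content apart. Chgb, the relative of Chga, was not called and averaged 866 ± 249 (WT), 690 ± 99.8 (PS19) and 689 ± 386 CPM (CgA-KO/PS19, SD).

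In low-affinity uptake 2 of 4 genes were called lower in PS19 than in WT, beside 5.9% of all genes tested. So short a list says little of uptake as a whole. Slc22a3 (OCT3) was 3.77 ± 2.04 CPM in WT and 1.27 ± 0.274 CPM in PS19 (SD), and the log2 fold change was -1.60 ± 0.42 (SE, adjusted p = 0.0284). Slc29a4 (PMAT) was 10.4 ± 8.15 CPM in WT and 2.80 ± 0.295 CPM in PS19, a difference of -1.91 ± 0.46 on the log2 scale (adjusted p = 0.0185). Each PS19 sample was below each WT sample for both genes, where 9.52% of all genes tested did not overlap. The call of Slc22a3 was lost in 7 of the 17 fits that left out 1 sample (adjusted p up to 0.0994). Slc29a4 was highest in WT replicate 5 (24.2 CPM), the sample with 1023 CPM of the choroid plexus gene Ttr (at most 9.92 CPM elsewhere), and without it the value was -1.32 (adjusted p = 0.0990). With the striatal marker score as a covariate Slc22a3 was 0.47 (adjusted p = 0.467) and Slc29a4 0.069 (adjusted p = 0.947). As the scores of WT and PS19 did not overlap, genotype and striatal content cannot be told apart in these fits. The parts of striatal and choroid plexus content were not tested further.

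Helpers of synthesis held 2 genes, of 3 listed, that were called between CgA-KO/PS19 and PS19, beside 9.72% of all genes tested. Cyb561, the cytochrome of dense-core vesicles that regenerates ascorbate for Dbh, averaged 67.4 ± 11.3 (PS19) and 35.0 ± 11.0 CPM (CgA-KO/PS19, SD, 6 samples each), and each CgA-KO/PS19 sample was below each PS19 sample. It fell with a log2 fold change of -0.95 ± 0.18 (SE, adjusted p = 0.00623, edgeR), kept its call without any 1 of the 17 samples (adjusted p at most 0.0191), and was also below WT (-0.65 ± 0.19, adjusted p = 0.0478), a call that was lost in 14 of these 17 fits. Moxd1, a relative of Dbh with no known catecholamine substrate, averaged 13.7 ± 4.39 (WT), 5.47 ± 1.13 (PS19) and 8.84 ± 0.850 CPM (CgA-KO/PS19). It fell in PS19 against WT (-1.33 ± 0.18, adjusted p = 0.000439), rose in CgA-KO/PS19 against PS19 (0.69 ± 0.17, adjusted p = 0.0203) and was lower in CgA-KO/PS19 than in WT (-0.64 ± 0.18, adjusted p = 0.0418). The call against PS19 was lost without PS19 replicate 2 (adjusted p = 0.0501), and that of CgA-KO/PS19 against WT in 8 of the 17 fits. Both were also lost with the striatal marker score as a covariate (0.68, adjusted p = 0.0537, and -0.62, adjusted p = 0.0702) and in either subset by Ddx3y (adjusted p = 0.109 above and 0.0866 below 1 CPM against PS19, and 0.159 and 0.0713 against WT). The Cyb561 call against PS19 held with that covariate (-0.88, adjusted p = 0.0308) and was lost in the samples with Ddx3y below 1 CPM (-0.67, adjusted p = 0.287). With near-identical samples averaged, the CgA-KO/PS19 against PS19 calls of Cyb561 (adjusted p = 0.0611) and Moxd1 (adjusted p = 0.166) were lost at log2 fold changes of -0.98 and 0.60. Slc7a8 and Slc3a2, carriers of large neutral amino acids and uncalled, averaged 107 and 78.2 CPM in WT, 108 and 89.1 CPM in PS19 and 88.1 and 79.5 CPM in CgA-KO/PS19.

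Clearance of the oxidised products was marked by Aldh1a1, an aldehyde dehydrogenase of dopamine neurons and other cells. It averaged 24.5 ± 4.03 (WT), 47.7 ± 12.2 (PS19) and 46.6 ± 21.1 CPM (CgA-KO/PS19, SD), and rose in PS19 (log2 fold change 0.96 ± 0.27, SE, adjusted p = 0.0449) and in CgA-KO/PS19 (0.93 ± 0.27, adjusted p = 0.0499) against WT. The samples overlapped: CgA-KO/PS19 replicates 1 to 3 had 53.0 to 72.5 CPM and replicates 4 to 6 had 27.0 to 29.3 CPM, close to the highest WT sample of 28.6 CPM. These 2 calls were lost in 11 and 12 of the 17 fits that left out 1 sample. Akr1a1 and Aldh2, the most abundant genes of the clearance list, were not called.

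**Figure D4:**
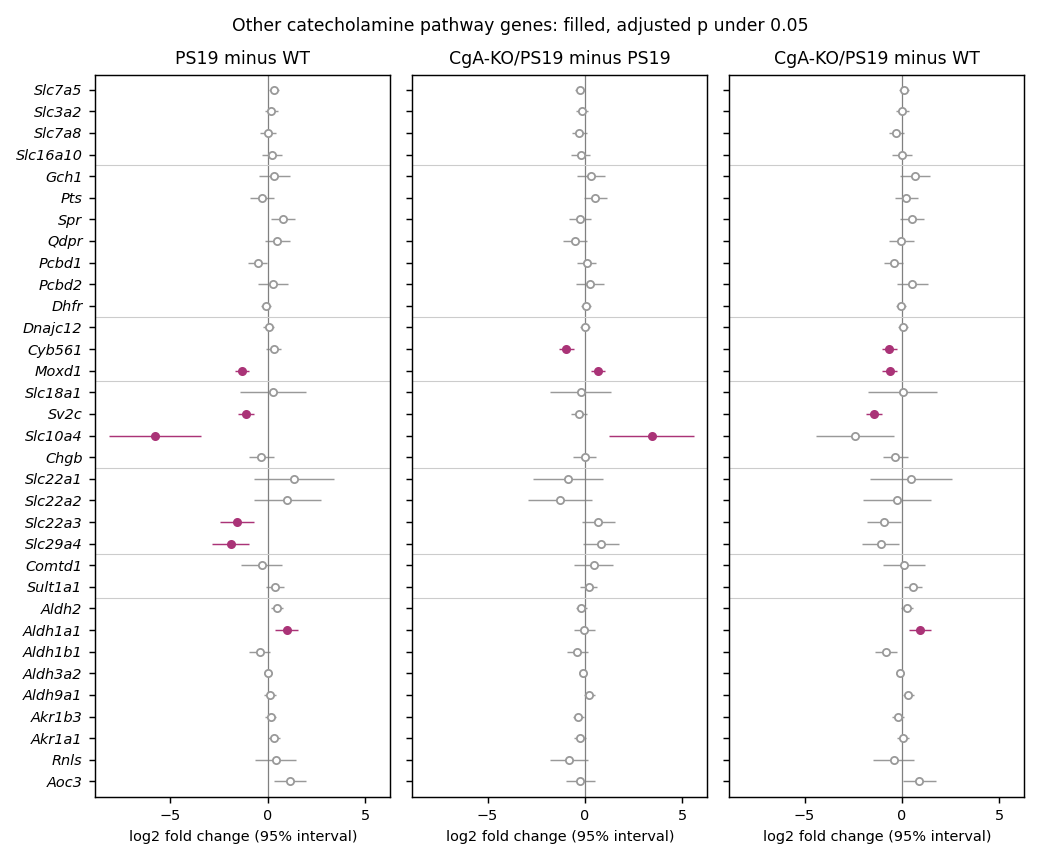
Log2 fold change (x axis, with its 95% interval) of the tested genes of the wider pathway in the 3 comparisons, grouped by list, with genes at an adjusted p under 0.05 filled; Chga is left out because it was at 0 in all CgA-KO/PS19 samples. Slc10a4 moves farthest, at -5.81 in PS19 against WT, and most genes lie near 0.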

How the data were processed

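Prefrontal cortex RNA of 17 mice was sequenced (mRNA libraries, paired-end). The authors assessed the reads with FastQC, trimmed them with Trimmomatic 0.39, aligned them to mm10 with STAR 2.7.10b and quantified them with StringTie 1.3.6, and prepDE turned the result into the deposited whole-number counts per gene, without normalization. Low counts peaked at 3 in most samples, since prepDE derives counts from coverage, so that low values look more precise than the fragments allow. The annotation release and the use of strand are not given in the sources used here. Of 56953 genes, 52029 matched GENCODE M21 by identifier, the source of coordinates. The depth was 8838334 to 227651681 counts per sample.

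Samples were grouped by the labelled genotype. Counts were tested with edgeR 4.0.16 in R 4.3.3 (TMM, filterByExpr by genotype, quasi-likelihood fit of all 17 samples, no covariate, Benjamini-Hochberg adjustment over 23062 genes, threshold 0.05). The study's methods use DESeq2 with a genotype model, which is an alternative here. Alternatives were DESeq2 1.42.0, its size factors in edgeR, 2 other filters (none, or at least 10 counts in every sample), 2 genotypes per fit, limma 3.58.1 voom with quality weights, counts divided by 3, a replicate block, Ddx3y or the striatal marker score as a covariate, near-identical samples averaged, and each sample left out. The split by Ddx3y was added after the data had been seen. The members, gene lists and tests were chosen with earlier results of these data known. Named are all members, called pathway genes, at most 2 uncalled genes per list by mean CPM, and the 3 genes most like each tested member. The edgeR test recovered 196 of 200 genes changed by a log2 fold change of 2 in simulated counts of PS19 against WT (22590 genes), with 3 false calls. DESeq2 recovered 199 with 34 false calls, and limma voom 196 with 4. The changed genes were drawn from those with a mean above 1 CPM, so that this says nothing of Dbh, Pnmt, Slc6a2 and Slc6a3. Smaller changes, such as those of Ddc and Maob, were not simulated, nor were outlying or near-identical samples. The recovery therefore does not give the power for the other members either. Some genes of the gene lists are not reported here and were left out of the lists' counts and sums. Figures were made with Python 3.11.15, pandas 2.3.3, numpy 2.4.6 and matplotlib 3.10.9.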

Additional observations from a re-analysis of the deposited data

Results flagged for a closer look

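Among 51 sets of values (17 genes in each genotype) 6 held a sample far from the others of its genotype by Dixon's test at 95%, a test that flags about 1 in 20 groups by chance. Th in WT replicate 3 was 14.3 CPM, the highest of the 17 samples. Slc18a2 in PS19 replicate 5 was 0.209 CPM, below every other sample. The other 4 lay at low counts: Pnmt in CgA-KO/PS19 replicate 3 was 0.116 CPM, Slc6a2 was 0.112 CPM in WT replicate 3 and 0.107 CPM in CgA-KO/PS19 replicate 1, and Slc6a3 was 0.0606 CPM in CgA-KO/PS19 replicate 3.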

How the results depend on the processing

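The count of called members was 0 in each comparison, and that of other pathway genes 6 in PS19 against WT, 4 in CgA-KO/PS19 against PS19 and 5 in CgA-KO/PS19 against WT. Shares over all genes stand above for this fit, DESeq2 and limma voom. For the other settings no shares are given, so that their counts below are no result about these genes. Without 1 sample each, called members were 0 to 1 in each comparison and pathway genes 3 to 7, 2 to 6 and 2 to 6 in this order, and log2 fold changes that changed sign were those of Maoa (-0.0188 to 0.0604 in PS19 against WT and -0.0190 to 0.0638 in CgA-KO/PS19 against PS19) and of Dbh (-0.51 to 0.46 in CgA-KO/PS19 against PS19). Sign changes of Maoa were all within 0.08 of 0. Slc6a3 counted as called against WT without WT replicate 1, where it entered the test only because the WT sample at 0 was left out, which is no support for a difference.

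In PS19 against WT, called members were 1 with DESeq2 (Slc6a3), 1 with only the 2 genotypes fitted (Dbh), 2 with limma voom (Th and Dbh) and 1 in the samples with Ddx3y below 1 CPM (Ddc). Pathway genes were 10 with limma voom (beside 17.2% of all genes), 3 with near-identical samples averaged and 1 in the samples with Ddx3y above 1 CPM. The striatal marker covariate turned Th to 0.62, Ddc to 0.14, Dbh to 2.21, Maob to 0.48, Slc29a4 to 0.0695 and Slc22a3 to 0.47, and Maoa was -0.00379 with limma voom and -0.0263 in the samples with Ddx3y below 1 CPM. That covariate did not overlap between WT and PS19, so that its fit cannot tell genotype and striatal content apart.

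In CgA-KO/PS19 against PS19, called members were 1 with DESeq2 (Maob), 2 with limma voom and 2 in the samples with Ddx3y above 1 CPM (Ddc and Maob in both). Pathway genes were 2 with at least 10 counts in every sample, 1 with near-identical samples averaged, 14 in the samples with Ddx3y above 1 CPM and 2 in those below. The shares of all genes called in these settings are not given here, so that the 14 cannot be read as particular to the pathway. Th was 0.10 with limma voom. Dbh was -0.73 with limma voom, -0.0825 with the Ddx3y covariate, -2.61 with the striatal covariate, -0.48 with near-identical samples averaged and -2.04 in the samples with Ddx3y below 1 CPM. Maoa was -0.0504 without a filter, -0.0777 with the striatal covariate, -0.0527 with near-identical samples averaged and -0.0176 in the samples with Ddx3y below 1 CPM. In these last samples Maob was -0.0701 and Slc10a4 -0.0962, and Slc10a4 was -0.69 with the striatal covariate.

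In CgA-KO/PS19 against WT, called members were 1 with DESeq2 and 1 without a filter (Slc6a3 in both), and 1 with the striatal covariate and 1 in the samples with Ddx3y above 1 CPM (Maob in both). Pathway genes were 2 without a filter, 2 with only the 2 genotypes fitted, 2 with near-identical samples averaged and 9 in the samples with Ddx3y above 1 CPM, again without shares over all genes. Ddc was 0.0506 with limma voom, 0.18 with the striatal covariate and 0.44 in the samples with Ddx3y above 1 CPM, and in the samples below 1 CPM Maoa was -0.0440 and Maob -0.19. The causes of these changes were not tested, beyond the fewer samples of the subsets and averaged fits.

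The replicate numbers did not pair the samples, as the correlation of same-numbered samples was -0.25 to 0.45 and few correlated best with their own number. With the replicate block, members called stayed at 0, pathway genes were 3, 2 and 2 in the order above, and Dbh was -0.36 in CgA-KO/PS19 against PS19. At WT replicate 4, the shallowest sample, a count of 0 allows up to 1.03 CPM, so that differences of Dbh, Pnmt and Slc6a2 at these levels were not detectable there. Slc6a3 had 3 counts in that sample, too few to place its level.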
